A study of Mus musculus with 24 samples.

Results

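A set of 10 genes of dietary fat handling was followed across 6 treatments of mouse ileum, from fatty acid uptake through triglyceride synthesis to the apolipoproteins that coat a chylomicron. They are Slc27a4 and Fabp2, Mogat2, Dgat1 and Dgat2, Mttp and Apob, and Apoa1, Apoa4 and Apoc3. All 10 were found by symbol among the 57126 gene identifiers of the counts table, and all 10 passed the filter on low counts, so none was left out of the tests.

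An enterocyte takes up fatty acids and monoacylglycerol from the gut lumen, rebuilds them into triglyceride in the endoplasmic reticulum and loads the triglyceride onto apolipoprotein B to make a chylomicron, which leaves the cell toward the lymph. The monoacylglycerol route, begun by Mogat2 and finished by the Dgat enzymes, makes most of this triglyceride after a meal. Bile acids solubilise dietary fat in the lumen, and they also act on enterocytes as ligands of FXR, the nuclear receptor that senses them.

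Ileal fragments from male wild-type C57BL/6J mice, starved for 4 h, were cultured for 8 h with an additive. The additives were the solvent DMSO at 0.6%, taurochenodeoxycholic acid (tCDCA, a bile acid and FXR ligand) or extracts from mice, in the forms CME(-) and CME(+), of wild-type (WT) or Asbt-/- donors. Asbt takes up bile acids in the ileum, and Asbt-/- is the genotype of the extract donor alone, because the treated tissue was wild-type in every group. CME(+) was taken as the form with bile acids depleted, and the labels of tCDCA and CME(-) replicates 2 to 4 state 200 µM. RNA was read by QuantSeq, a 3' tag method, and 21 libraries were compared: 3 with DMSO, 4 with tCDCA, 4 with WT CME(-), 3 with WT CME(+), 3 with Asbt-/- CME(-) and 4 with Asbt-/- CME(+). Replicate 1 of each group came from a first sequencing run and replicates 2 to 4 from a second, and DMSO had no first-run library among those compared. Whether the fragments of a group were from different animals is not stated, and each p-value therefore reflects sample-to-sample spread that may be technical only.

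Promoter windows are shown for 4 of the genes, because the genes of the group lay lower together with tCDCA while they differed in what stands before their start sites. A window runs from 250 bases before to 50 after the annotated start, 5' to 3' on the strand of the gene, and comes from the RefSeq table for GRCm38.p6, which held windows for 6 of the 10 genes. Capitals mark a match to one of the motifs searched, and Apoa4 has none.
Slc27a4, chr2:29802384-29802683, + strand: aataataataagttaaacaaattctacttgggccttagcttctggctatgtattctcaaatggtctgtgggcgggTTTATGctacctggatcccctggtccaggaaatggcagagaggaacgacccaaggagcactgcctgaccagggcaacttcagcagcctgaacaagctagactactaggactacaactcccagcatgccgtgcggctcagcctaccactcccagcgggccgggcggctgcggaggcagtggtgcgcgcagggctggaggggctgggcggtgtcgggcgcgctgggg
Mttp, chr3:138143369-138143668, - strand: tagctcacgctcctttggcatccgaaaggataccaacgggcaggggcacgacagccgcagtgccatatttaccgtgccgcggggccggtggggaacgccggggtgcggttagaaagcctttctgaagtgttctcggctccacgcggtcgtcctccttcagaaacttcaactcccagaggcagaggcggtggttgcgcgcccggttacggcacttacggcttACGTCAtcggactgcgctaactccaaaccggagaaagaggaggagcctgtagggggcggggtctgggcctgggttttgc
Apob, chr12:7977427-7977726, + strand: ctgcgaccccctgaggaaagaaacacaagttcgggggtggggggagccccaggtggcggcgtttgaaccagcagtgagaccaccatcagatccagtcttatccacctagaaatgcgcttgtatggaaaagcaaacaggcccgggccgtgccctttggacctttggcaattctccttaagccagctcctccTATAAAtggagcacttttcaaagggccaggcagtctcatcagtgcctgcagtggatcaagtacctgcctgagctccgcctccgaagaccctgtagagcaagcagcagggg
Apoa4, chr9:46240594-46240893, + strand: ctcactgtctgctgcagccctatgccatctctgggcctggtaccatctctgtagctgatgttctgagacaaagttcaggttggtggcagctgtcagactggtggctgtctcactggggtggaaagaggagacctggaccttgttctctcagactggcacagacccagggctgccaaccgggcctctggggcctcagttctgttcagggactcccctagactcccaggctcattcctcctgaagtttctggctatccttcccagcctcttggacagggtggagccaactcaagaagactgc

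In the Slc27a4 window the capitals are TTTATG, the core bound by the intestinal factor CDX2, whose first base lies 175 bases before the start. It occurs in 11.9% of the 32851 windows of the table on either strand. In the Mttp window they are ACGTCA, the reverse complement of the CRE core TGACGT, 29 bases before the start, found in 7.51% of windows. The Apob window has a TATA box, TATAAA, 60 bases before the start, a run of letters present in 13.6% of windows. None of the 6 windows held the HNF4 type motifs CAAAGTCCA and CAAAGGTCA (0.475% and 0.478% of windows), the nuclear receptor core AGGTCA (16.3%) or the GATA motif AGATAA (11.2%). The FXR inverted repeat and the HNF1 motif were also without a match in these 6, and each stood in 0.00913% of windows. These are exact matches of letters in a short window on either strand and not sites of binding. Variants with another base, such as caaagttca in the Apoa4 window, were not counted, so a missing match does not mean a missing element. In the RefSeq gene order, Dgat2 and Mogat2 are neighbours on chromosome 7, and Apoa1, Apoc3 and Apoa4 follow each other on chromosome 9, with 0 protein-coding genes between neighbours in both places.

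Libraries held 2.76 to 5.6 M counts, of which the 10 genes took 3344 to 26644 counts, or 0.09 to 0.73%. Levels are given as CPM, counts scaled to library size with TMM factors, and changes as log2 differences ± SE. The threshold for a call was an adjusted p of 0.05 (edgeR quasi-likelihood test, Benjamini-Hochberg over 13125 genes). Fgf15, a hormone gene that FXR induces, rose by 4.98 ± 0.38 with tCDCA (adjusted p = 2.89e-07). With the WT and Asbt-/- extracts it rose by 4.51 and 5.21 for CME(-), and by 3.05 and 3.14 for CME(+). Slc10a2, which encodes Asbt and is repressed through FXR, fell by 1.77 ± 0.22 with tCDCA (6.37e-06). Mitochondrial rRNA took 19.46 to 34.6% of the counts in the DMSO libraries and 33.14, 5.29 and 28.14% in tCDCA replicates 2, 3 and 4. Replicate 3 thus stood apart from its run, below even the 6.78 to 8.29% of the first-run libraries compared. The part of mitochondrial rRNA in the results was not tested.

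With tCDCA all 10 genes lay below DMSO, with a median of -1.52 log2 units (lowest -2.48, highest -0.91) against a median of 0 over all genes. The called genes numbered 6: the transporter gene Slc27a4, the 3 acyltransferase genes Mogat2, Dgat1 and Dgat2, the transfer protein gene Mttp and Apoa1. The called lower share over all genes was 3.16%. Fabp2, Apob, Apoa4 and Apoc3 were not called. In the second run, 9 of the 10 had every tCDCA library below every DMSO library, where 9.78% of all genes did, and Apoa1 was the gene that overlapped. In the levels below, the DMSO libraries are second-run, while replicate 1 of each treated group is first-run and has no compared DMSO library of its run.

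**Figure D1:**
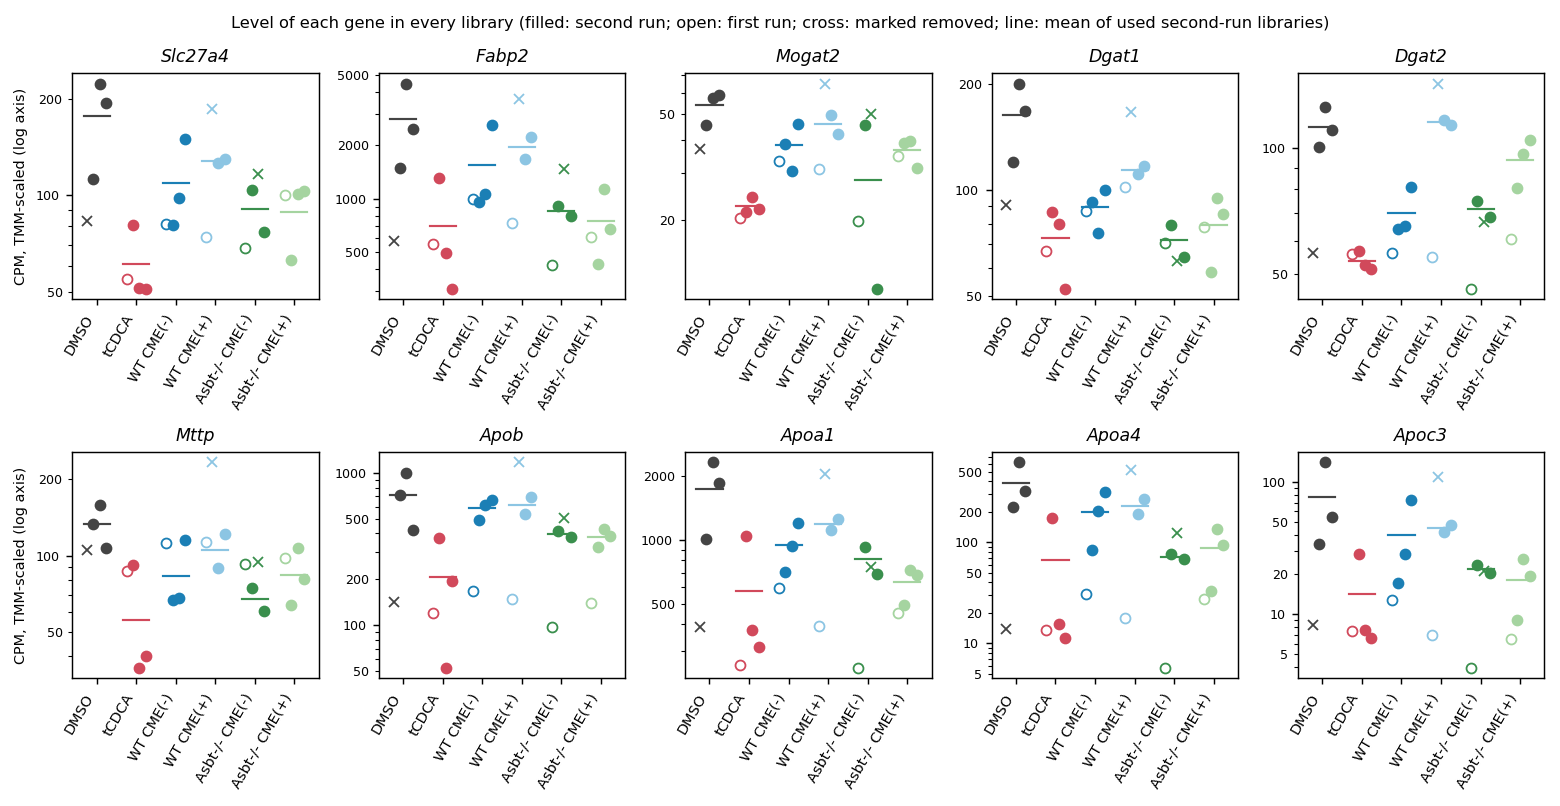
Level of each gene in every library, as TMM-scaled CPM on a log axis, by treatment. Filled points are second-run and open points first-run libraries, crosses are the 3 libraries marked as removed, and lines are means of the second-run libraries compared: tCDCA replicate 2 stands above the other tCDCA libraries for the apolipoproteins and Fabp2, and the first-run libraries lie low for Apob, Apoa4 and Apoc3 with the extracts but within the second-run range with tCDCA.

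Slc27a4 (ENSMUSG00000059316) encodes FATP4, a fatty acid transport protein with acyl-CoA synthetase activity. It was at 112, 223 and 194 CPM with DMSO in replicates 2, 3 and 4, and at 54.7, 80.8, 51.4 and 50.9 with tCDCA in replicates 1 to 4. The groups did not overlap, and tCDCA replicate 2 was the highest treated library. Slc27a4 fell by 1.5 ± 0.25 (2.82-fold, 95% interval -2.02 to -0.97, adjusted p = 0.000577). Fabp2 (ENSMUSG00000023057), the intestinal fatty acid binding protein that carries fatty acids in the cytosol, was at 1500, 4470 and 2480 CPM with DMSO and at 559, 1310, 495 and 309 with tCDCA. In the second run no treated library reached the lowest DMSO library. The first-run tCDCA library, at 559 CPM, was near the first-run DMSO library left out of the fit, at 581. The libraries within each group lay far apart, and the difference of -1.9 ± 0.53 was not called (interval -3.05 to -0.76, adjusted p = 0.0525).

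The 3 acyltransferase genes were all called lower. Mogat2 (ENSMUSG00000052396), which joins a fatty acid to monoacylglycerol, was at 45.5, 57.4 and 59.3 CPM with DMSO and at 20.4, 21.4, 24.5 and 22 with tCDCA. The treated libraries lay within a few CPM of each other, all below DMSO. It fell by 1.22 ± 0.26 (2.33-fold, adjusted p = 0.00222).

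Dgat1 (ENSMUSG00000022555) adds the last fatty acid to make triglyceride and is the main DGAT of the intestine. Its levels were 120, 201 and 168 CPM with DMSO and 66.9, 86.5, 80.2 and 52.2 with tCDCA, again with no overlap. Dgat1 fell by 1.17 ± 0.18 (2.25-fold, adjusted p = 3.77e-05), the smallest p of the 10 genes. Dgat2 (ENSMUSG00000030747) catalyses the same step with an unrelated protein. It was at 101, 126 and 111 CPM with DMSO and at 56, 57, 52.7 and 51.5 with tCDCA. The treated libraries, first run included, were nearly level. The first-run DMSO library, left out of the fit, was at 56.2 CPM, level with the first-run tCDCA library. Dgat2 fell by 0.91 ± 0.18 (1.87-fold, adjusted p = 0.00106). In all 20 alternative analyses, Mogat2, Dgat1 and Dgat2 were called lower.

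Mttp and Apob make the core of the particle. Mttp (ENSMUSG00000028158), the microsomal triglyceride transfer protein that loads lipid onto apolipoprotein B, was at 133, 159 and 107 CPM with DMSO and at 87, 91.6, 36 and 40.2 with tCDCA. Its tCDCA libraries formed a higher pair, replicates 1 and 2, and a lower pair, replicates 3 and 4, both below DMSO. Mttp fell by 1.18 ± 0.27 (2.27-fold, adjusted p = 0.011), and the call held in 15 of 20 alternatives. Mttp was not called without DMSO replicate 3 (-1.03, adjusted p = 0.08), with no run term (-1.06, 0.0796), with all 24 libraries (-1, 0.12), with the compared groups alone (-1.26, 0.0525) or with number 3 of both groups omitted (-0.84, 0.173). Apob (ENSMUSG00000020609), the structural protein of the chylomicron, was at 715, 998 and 419 CPM with DMSO and at 120, 371, 52.2 and 196 with tCDCA. In the second run the groups did not overlap, but tCDCA replicate 2 came close to DMSO replicate 4. The first-run DMSO library, left out of the fit, was at 141 CPM beside the 120 of tCDCA replicate 1. Its difference of -1.54 ± 0.48 was not called (adjusted p = 0.0808), and it was called without tCDCA replicate 3, at -1.15 (adjusted p = 0.0414).

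Of the exchangeable apolipoproteins, Apoa1 (ENSMUSG00000032083), the main protein of HDL that also rides on new chylomicrons, was called and least firmly. It was at 1010, 2320 and 1860 CPM with DMSO and at 256, 1040, 374 and 311 with tCDCA, where replicate 2 passed DMSO replicate 2. Apoa1 fell by 1.62 ± 0.41 (3.07-fold, adjusted p = 0.0311). The call held in 6 of 20 alternatives and was lost without tCDCA replicate 1 (-1.59, adjusted p = 0.0616), tCDCA replicate 3 (-1.44, 0.0969), tCDCA replicate 4 (-1.4, 0.0839), DMSO replicate 3 (-1.35, 0.161) or DMSO replicate 4 (-1.55, 0.0841). With the replicate number as a block Apoa1 was at -1.63, with an adjusted p of 0.0596.

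Apoa4 (ENSMUSG00000032080), an apolipoprotein made mainly by the intestine and secreted with chylomicrons, showed the widest spread. Its levels were 224, 616 and 325 CPM with DMSO and 13.4, 172, 15.4 and 11.3 with tCDCA. Of the tCDCA libraries 3 lay between 11.3 and 15.4 CPM and replicate 2 stood apart, still below the second-run DMSO libraries. The first-run DMSO library, left out of the fit, was at 13.9 CPM. The difference was -2.48 ± 0.82 (interval -4.24 to -0.72, adjusted p = 0.104), and without tCDCA replicate 2 it was -3.85 and called (adjusted p = 0.0184). Apoc3 (ENSMUSG00000032081), which slows the lipolysis and clearance of triglyceride-rich particles, was at 34.2, 141 and 54.8 CPM with DMSO and at 7.43, 28.8, 7.57 and 6.6 with tCDCA. Apoc3 had the same high library. Its difference was -2.21 ± 0.65 (adjusted p = 0.0651), and -2.71 without tCDCA replicate 2 (adjusted p = 0.0459). Fabp2 too was called without that library, at -2.39 (adjusted p = 0.0247), and so were Fabp2 and Apoc3 without DMSO replicate 2, at -2.21 (0.0369) and -2.56 (0.0419).

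**Figure D2:**
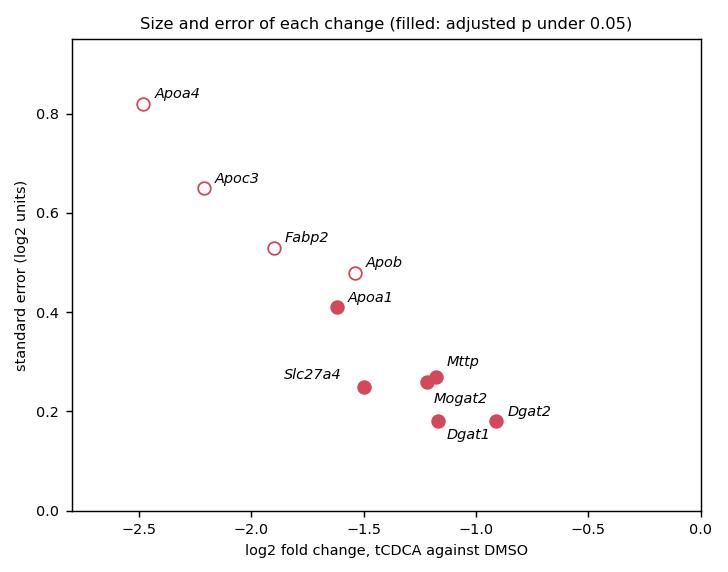
Log2 difference between tCDCA and DMSO against its standard error for the 10 genes, with called genes filled. The 4 genes with an error of 0.48 or more, Apob, Fabp2, Apoc3 and Apoa4, were not called although 3 of them have the largest differences.

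Size and certainty were thus ordered differently. The 3 largest differences, of Apoa4, Apoc3 and Fabp2, carried errors of 0.82, 0.65 and 0.53 and missed the threshold. Dgat2, with the smallest difference, had an error of 0.18 and passed it. DESeq2 with the same terms called all 10 genes lower. It called 993 of the 13125 genes in either direction, where edgeR called 746. Relative to the mean of its group, tCDCA replicate 2 had a median deviation of 0.95 log2 units over the 10 genes, replicates 3 and 4 had -0.32 and -0.39, and over the 21 enterocyte markers replicate 2 was at 0.4. Among the DMSO libraries the median deviations were -0.5, 0.45 and -0.03. Leaving out number 3 of both groups left 3 genes called, and Slc27a4 was then at -1.2 (adjusted p = 0.0561). That count is not set against the share of all genes called with the same libraries.

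Markers of the mature enterocyte lay lower in the same libraries. Of 21 such markers 18 were called lower with tCDCA, with a median of -1.56, and their summed level was 2490 to 3010 CPM in the second-run tCDCA libraries against 6430 to 8150 with DMSO. Lct and Cyp3a11 were at 0 in at least 1 library, and the lowest level of each of the other 19 was above 0. The 10 pan-epithelial markers had a median of 0.11, with summed levels of 4350 to 5630 CPM against 4420 to 5530, and Krt18 and Krt19, 2 keratin genes named after their values were seen, were called higher, in 12 and 6 of 20 alternatives. Krt18 was lost without DMSO replicate 2 (1.12, adjusted p = 0.0587) or 3 (1.01, 0.0992), and Krt19 without DMSO replicate 2 (0.66, 0.0738) or 3 (0.44, 0.357) or tCDCA replicate 1 (0.6, 0.0799), 3 (0.5, 0.135) or 4 (0.61, 0.1). In bulk fragments, fewer cells of a type and less RNA per cell cannot be told apart, and the part of enterocyte content in the changes of the 10 genes was not tested.

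Other cell types that use these genes were checked by their markers. Hepatocytes make Apob, Apoa1 and Apoc3, and 6 of the 8 hepatocyte markers were at or near 0: Alb reached 5 counts in any library, Ahsg and Serpina1a 2, Fgb and Apoh 9 and Ttr 11. The other markers were detected, Cps1 at 20.3 to 58 CPM and Tat at 6.11 to 100 CPM, and Tat rose by 1.61 ± 0.31 with tCDCA (adjusted p = 0.000718) and by 1.8 ± 0.31 with Asbt-/- CME(+) (0.000669). The summed level of the 8 was 57 to 82.3 CPM in the second-run tCDCA libraries, 76.5 to 86.3 with Asbt-/- CME(+) and 26.9 to 59.9 with DMSO. Most of this sum is Cps1 and Tat, so it does not describe the 6 markers at or near 0. Its part in the results was not tested. Adipocytes express Dgat2, and the summed level of 10 adipocyte markers was 57.7 to 94 CPM in the second-run tCDCA libraries against 53.2 to 82.5 with DMSO, 28.4 to 30.6 with Asbt-/- CME(-) and 31.7 to 34.3 with Asbt-/- CME(+). In the first run it was 324 to 833 CPM, and its part in the first-run levels was not tested. Of 9 crypt markers tested 0 were called, with a median of 0.46, and 3 of 7 Paneth markers were called higher, with a median of 0.69, but 0 with no scaling factors or with pan-epithelial scaling. Of 8 enteroendocrine markers 3 were called higher, with a median of 0.25 (3 with no scaling factors, 2 with pan-epithelial scaling), and their summed second-run level was 450 to 593 CPM against 406 to 421 with DMSO. Of 7 goblet markers 2 were called lower, with a median of -0.04 (0 with no scaling factors), and their sum was 5010 to 6970 against 5770 to 7460. The part of these cell types in the results was not tested.

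Other genes of the pathway were called in both directions with tCDCA. Of 10 other genes of fatty acid uptake and activation, 1 was called lower and 1 higher, with a median of 0.02: Acsl5, an acyl-CoA synthetase of the enterocyte, fell by 1.03 ± 0.16 (adjusted p = 4.65e-05), and Acsl4, a synthetase that prefers arachidonate, rose by 0.69 ± 0.18 (0.018). Of 17 genes of glycerolipid synthesis, 2 were called lower and 1 higher, with a median of 0.01. Gpd1 and Gk, which supply glycerol 3-phosphate, fell by 0.84 ± 0.18 (adjusted p = 0.00248) and fell by 0.82 ± 0.18 (0.00244), and the lysophospholipid acyltransferase gene Mboat1 rose by 1.1 ± 0.21 (0.000718). Of 15 lipid droplet genes, 2 were called lower and 1 higher, with a median of -0.29. Cideb, a droplet and lipoprotein lipidation factor, fell by 0.93 ± 0.19 (0.0014), the droplet coat gene Plin3 fell by 0.82 ± 0.16 (0.000718), and Hilpda, an inhibitor of triglyceride lipolysis, rose by 0.94 ± 0.2 (0.00205).

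Among 20 tested genes of chylomicron assembly and transport 6 were called lower and 0 higher with tCDCA, with a median of -0.31. Of these, 3 act in the lipidation of lipoproteins: Tm6sf2 fell by 1.34 ± 0.18 (adjusted p = 5.11e-06), Smlr1 fell by 2.46 ± 0.48 (0.000921) and Pla2g12b fell by 1.41 ± 0.32 (0.00514). The others, named after their values were seen, were Sar1b, the small GTPase that moves chylomicrons out of the endoplasmic reticulum (-0.64 ± 0.16, 0.00936), the phospholipid remodelling gene Lpcat3 (-0.74 ± 0.2, 0.0198) and Apoe (-0.56 ± 0.17, 0.0407). Of 22 transcription regulators of lipid and apolipoprotein genes, 4 were called lower and 1 higher, with a median of -0.44. Hnf4g fell by 1.26 ± 0.25 (adjusted p = 0.000921), Maf fell by 0.91 ± 0.17 (0.000612), the intestinal identity factor Cdx2 fell by 1.2 ± 0.27 (0.00395) and Creb3l3, an activator of apolipoprotein genes, fell by 1.67 ± 0.43 (0.0346). Klf5, a crypt factor, rose by 0.61 ± 0.17 (0.0298), and it and Creb3l3 were named after their values were seen. No called gene of these 5 lists changed sign in any of the 20 alternatives, but several calls were often lost: Creb3l3 was called in 7 of 20, Apoe in 8, Klf5 in 11, Lpcat3 in 12, Sar1b in 14, Acsl4 and Hilpda in 15, and Gk and Cdx2 in 16. Without DMSO replicate 3 alone, 7 of these lost their call: Lpcat3 was at -0.55 (adjusted p = 0.209), Creb3l3 at -1.26 (0.201), Apoe at -0.45 (0.257), Klf5 at 0.53 (0.176), Sar1b at -0.6 (0.0579), Gk at -0.64 (0.0612) and Hilpda at 0.69 (0.0533). Without tCDCA replicate 4, Creb3l3 (-1.5, 0.104), Klf5 (0.54, 0.0981) and Sar1b (-0.56, 0.0515) were not called, and without tCDCA replicate 3, Creb3l3 (-1.39, 0.0883), Apoe (-0.51, 0.0797) and Lpcat3 (-0.67, 0.0526). Without DMSO replicate 4, Cdx2 (-0.68, 0.154), Acsl4 (0.54, 0.135), Creb3l3 (-1.82, 0.0501) and Apoe (-0.52, 0.117) were not called, Acsl4 was also lost without tCDCA replicate 2 (0.54, 0.0805), and Apoe was also lost without tCDCA replicate 1 (-0.5, 0.0946) or 2 (-0.55, 0.0591). With no scaling factors 3 assembly genes and 3 regulators were called lower, and 0 genes of the glycerolipid and droplet lists. With no scaling factors the median of all genes moved to 0.13 and with pan-epithelial scaling to -0.16, and the medians near 0 of the uptake and synthesis lists moved with it, to 0.15 and 0.09 and to -0.17 and -0.18.

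**Figure D3:**
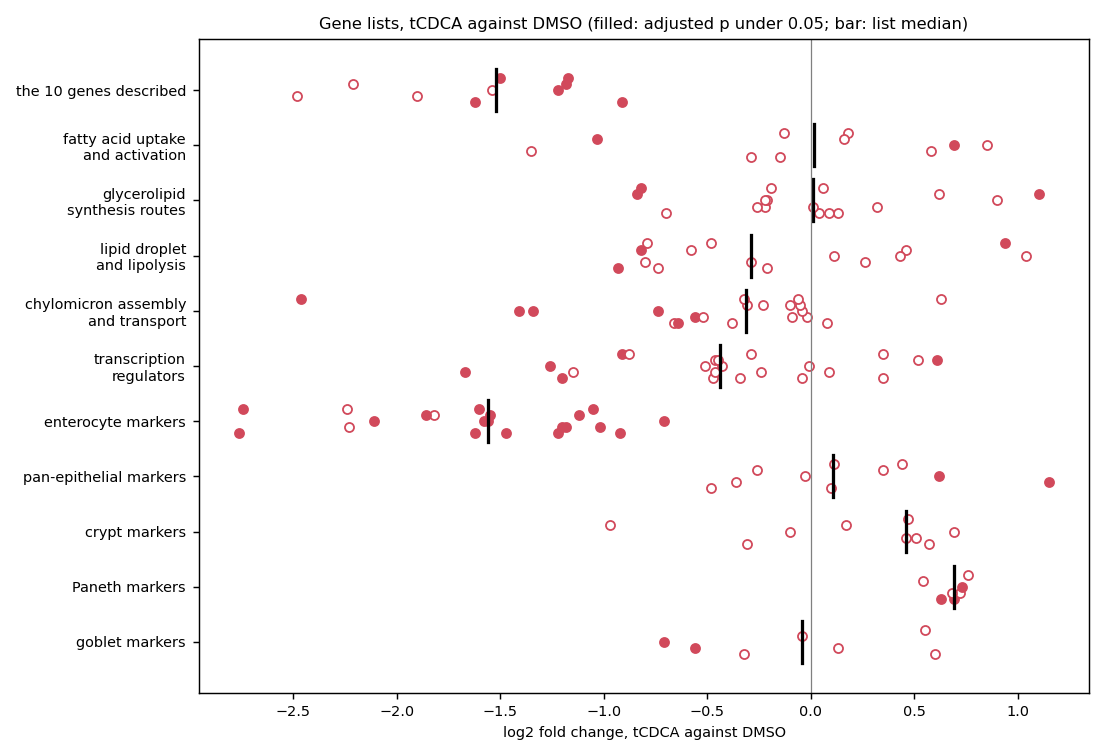
Log2 fold change of single genes between tCDCA and DMSO, by list, with called genes filled and the list median as a bar. The 10 genes (median -1.52) lie with the enterocyte markers (-1.56) and apart from the uptake (0.02) and glycerolipid synthesis (0.01) lists.

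The extracts were compared with the same DMSO libraries, so these comparisons share their controls. With WT CME(-) all 10 genes lay below DMSO, with a median of -0.74, and Dgat1 was called (0.19% of all genes were called lower). Its levels were 87.2, 92.6, 75.2 and 100 CPM in replicates 1 to 4, all below the lowest DMSO library compared, at 120. Replicate 1 is from the first run, where the DMSO library left out of the fit was at 90.5 CPM. Dgat1 fell by 0.86 ± 0.18 (1.81-fold, adjusted p = 0.0269). That call held in 7 of 20 alternatives and was lost on leaving out WT CME(-) replicate 1 (-0.87, adjusted p = 0.0731), 2 (-0.87, 0.0795) or 3 (-0.77, 0.143), or DMSO replicate 3 (-0.68, 0.306) or 4 (-0.82, 0.132).

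For the others with WT CME(-), differences ran from -0.96 ± 0.79 (Apoa4, adjusted p = 0.778) to -0.33 ± 0.47 (Apob, 0.89). In the second run Dgat2, at 64.3, 65.1 and 80.7 CPM, did not overlap DMSO either. Its first-run level was 56.1 CPM, against 56.2 in the first-run DMSO library left out of the fit. The Dgat2 difference of -0.64 ± 0.18 was not called (adjusted p = 0.134). Dgat1 and Dgat2 were the 2 of 10 genes whose second-run libraries lay wholly below DMSO, against 6.82% of all genes. Apoc3 was at 12.9, 17.1, 28.8 and 73.8 CPM and Fabp2 at 996, 956, 1060 and 2620, so in both replicate 4 was far above the rest and within the DMSO range. Mogat2 was at -0.48 ± 0.25, Mttp at -0.66 ± 0.27, Slc27a4 at -0.72 ± 0.25, Fabp2 at -0.85 ± 0.53, Apoa1 at -0.76 ± 0.41 and Apoc3 at -0.92 ± 0.62, with adjusted p between 0.304 and 0.705.

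With WT CME(+) 0 of the 10 genes were called by edgeR or by DESeq2 (edgeR called 0.0305% of all genes lower). An unadjusted edgeR p under 0.05 was found for 2 of them, Dgat1 and Slc27a4, and for 1317 of all 13125 genes. All 10 differences were below 0, with a median of -0.58. Dgat1 was at 102, 111 and 117 CPM in replicates 1, 3 and 4, just under the DMSO libraries compared, a difference of -0.54 ± 0.2 (adjusted p = 0.313). Of the 10 genes, Dgat1 alone lay wholly below DMSO in the second run, where 12.1% of all genes did. The first-run DMSO library, left out of the fit, was at 90.5 CPM, below the 102 of replicate 1. Slc27a4 was at 74, 126 and 130 CPM, a difference of -0.61 ± 0.27 (0.457). Dgat2 was at 54.9 CPM in the first run and at 117 and 114 in the second, inside the DMSO range, with a difference of -0.14 ± 0.19 (interval -0.52 to 0.25) whose sign changed in 5 of 19 alternatives. Apob (-0.34 ± 0.5) and Mttp (-0.42 ± 0.29) also changed sign in 2 and 1 of them. Mogat2 was at -0.33 ± 0.27, Apoa1 at -0.7 ± 0.44, Fabp2 at -0.73 ± 0.57, Apoa4 at -0.99 ± 0.85 and Apoc3 at -0.99 ± 0.66.

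With Asbt-/- CME(-) all 10 genes lay below DMSO, the median was -1.08 and Dgat1 was called (0.571% of all genes were called lower). Dgat1 was at 70.6, 79.6 and 64.3 CPM in replicates 1, 2 and 4 and fell by 1.16 ± 0.2 (2.24-fold, adjusted p = 0.00169). Without Asbt-/- CME(-) replicate 4 it was at -1.07 and not called (0.0609). In the second run 9 of the 10 genes lay wholly below DMSO, where 14.2% of all genes did, with 2 libraries against 3.

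The exception was Mogat2, at 19.9, 45.7 and 11 CPM, of which the middle value lay just above the lowest DMSO library. Its difference of -1.01 ± 0.28 was not called (adjusted p = 0.075) and was -1.7 and called without Asbt-/- CME(-) replicate 2 (0.0015). Apoa4 was at 5.67 CPM in the first run and at 75.7 and 67.8 in the second, a difference of -2.65 ± 0.92 (0.225). Slc27a4, at 68.4, 104 and 76.5 CPM, was at -1 ± 0.28 (0.0825), and without DMSO replicate 2 at -1.25 and called (0.00841). The remaining 6 genes were not called: Dgat2 was at -0.7 ± 0.19, Mttp at -0.95 ± 0.3, Apob at -0.98 ± 0.51, Apoa1 at -1.28 ± 0.44, Apoc3 at -1.98 ± 0.71 and Fabp2 at -1.82 ± 0.58, with adjusted p from 0.0717 to 0.469. DESeq2 called 6 of the 10 lower, and 297 of all 13125 genes in either direction, where edgeR called 125.

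With Asbt-/- CME(+), the form taken as depleted, the median was -0.94 and Dgat1 was again called (0.922% of all genes were called lower). Its levels were 78.5, 58.4, 94.7 and 85.3 CPM, and Dgat1 fell by 1.02 ± 0.18 (2.03-fold, adjusted p = 0.00131). In all, 8 of the 10 genes lay wholly below DMSO in the second run, where 11.2% of all genes did, and Dgat2 and Apob overlapped. Dgat2 was at 60.9, 80.4, 96.8 and 105 CPM, of which the last lay above the lowest DMSO library, and its difference was -0.29 ± 0.18 (0.444). Slc27a4, at 100, 62.7, 101 and 103 CPM, was at -0.86 ± 0.25 (0.076) and was called without Asbt-/- CME(+) replicate 1 (-0.99, 0.0383) or DMSO replicate 2 (-1.09, 0.00788). Apoa1 (-1.28 ± 0.41), Fabp2 (-1.8 ± 0.53), Apoc3 (-2 ± 0.63) and Apoa4 (-1.88 ± 0.82) had the largest differences and were not called, with adjusted p of 0.132, 0.103, 0.127 and 0.287. Mogat2 was at -0.5 ± 0.25, Mttp at -0.7 ± 0.27 and Apob at -0.87 ± 0.47. DESeq2 called 5 of the 10 lower, and 532 of all 13125 genes in either direction, where edgeR called 303.

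**Figure D4:**
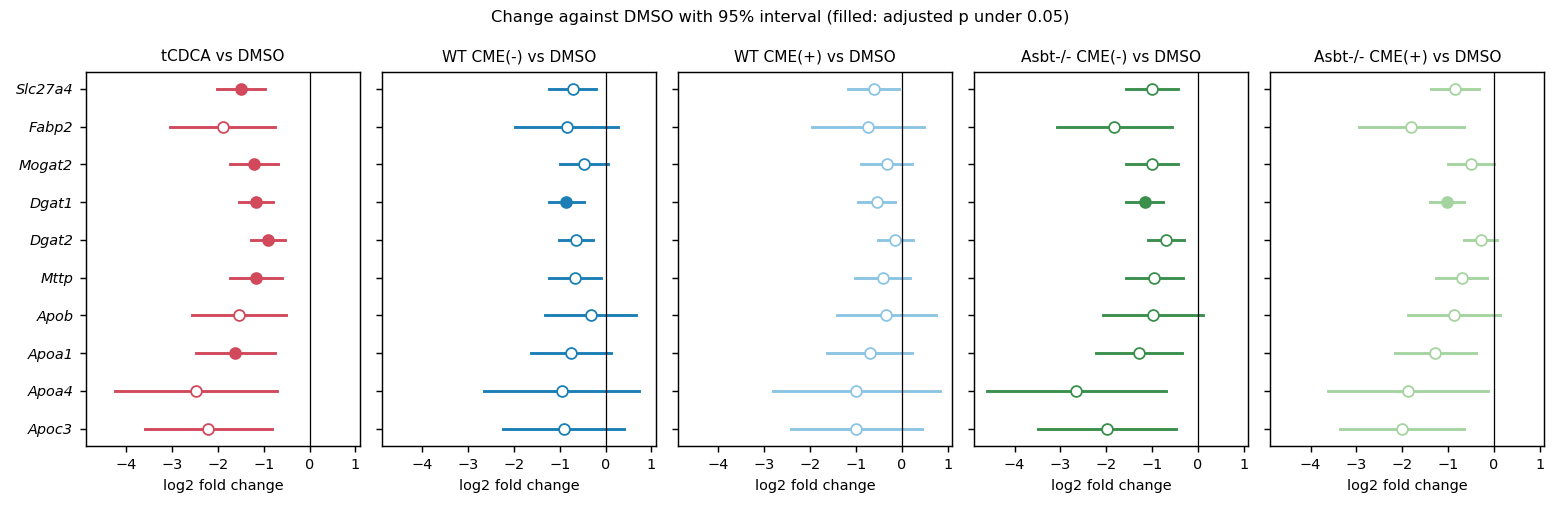
Log2 fold change against DMSO of the 10 genes with 95% interval, in 5 panels for tCDCA and the 4 extracts, with called genes filled. Every point lies below 0; 6 genes were called with tCDCA, Dgat1 alone with WT CME(-) and both Asbt-/- extracts, and none with WT CME(+).

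Dgat1 was therefore called lower in 4 of the 5 comparisons with DMSO, all resting on the same 3 control libraries. Enterocyte markers lay lower beside it: their summed second-run level was 4090 to 5510 CPM with WT CME(-), 6140 to 6570 with WT CME(+), 4140 to 4910 with Asbt-/- CME(-) and 4110 to 5600 with Asbt-/- CME(+), against 6430 to 8150 with DMSO. Of the 21 markers, 3, 0, 4 and 4 were called lower in these groups. Its part in the Dgat1 values was not tested.

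Few other pathway genes were called with the extracts, and 0 of the 5 lists' genes with either WT extract. After Asbt-/- CME(-), Tm6sf2 fell by 0.8 ± 0.2 (adjusted p = 0.0324), Acsl5 fell by 0.9 ± 0.18 (0.00876) and Gk fell by 0.76 ± 0.19 (0.0399), and Hilpda rose by 0.94 ± 0.21 (0.0219). After Asbt-/- CME(+), Gk fell by 0.62 ± 0.17 (0.0449), Sar1b fell by 0.58 ± 0.16 (0.0374), Vmp1, which releases lipoproteins from the endoplasmic reticulum membrane, fell by 1.13 ± 0.21 (0.0028) and Cidec, a droplet fusion factor that is also on the adipocyte list, fell by 1.48 ± 0.37 (0.0214). Hilpda rose by 0.8 ± 0.2 (0.0187), Mboat1 by 0.74 ± 0.21 (0.0481), Acsl3 by 0.86 ± 0.24 (0.045), the folding enzyme gene Pdia4 by 0.92 ± 0.21 (0.00902) and Klf5 by 0.65 ± 0.17 (0.0338). Most of these calls depended on single libraries. With Asbt-/- CME(-), Tm6sf2 and Gk were called in 6 of 19 alternatives, Hilpda in 8 and Acsl5 in 13. Without DMSO replicate 3, Tm6sf2 was at -0.71 (adjusted p = 0.2), Gk at -0.58 (0.291) and Hilpda at 0.69 (0.199), and without Asbt-/- CME(-) replicate 4 all of these and Acsl5 (-0.85, 0.121) were not called. Leaving out Asbt-/- CME(-) replicate 1 also ended the calls of Tm6sf2 (-0.76, 0.116), Gk (-0.68, 0.157) and Hilpda (0.94, 0.051), DMSO replicate 2 that of Tm6sf2 (-0.78, 0.0585) and DMSO replicate 4 that of Gk (-0.76, 0.0897). For Asbt-/- CME(+), Gk was called in 5 of 20, Sar1b and Mboat1 in 8, Acsl3 in 9, Cidec and Klf5 in 10, Hilpda in 12, Pdia4 in 15 and Vmp1 in 19. There, leaving out DMSO replicate 3 ended every call but that of Vmp1, with adjusted p from 0.0599 (Pdia4) to 0.399 (Gk), and Gk, Sar1b, Mboat1, Acsl3, Cidec, Klf5 and Hilpda were each also lost without at least 2 of the other libraries. The summed adipocyte markers lay lower beside the Cidec call, at 31.7 to 34.3 CPM against 53.2 to 82.5 with DMSO, and their part in it was not tested.

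In the direct comparisons of tCDCA with the extracts, Dgat2 was the one gene of the 10 that was called. Dgat2 fell by 0.77 ± 0.18 against WT CME(+) (1.7-fold, adjusted p = 0.0132) and fell by 0.61 ± 0.16 against Asbt-/- CME(+) (1.53-fold, 0.0369) (1.06% of all genes were called lower in each). Against the CME(-) forms it was at -0.26 ± 0.17 for WT (interval -0.6 to 0.07, adjusted p = 0.613) and at -0.21 ± 0.18 for Asbt-/- (interval -0.57 to 0.16, 0.832), with 0 of the 10 genes called by edgeR in both (0.274% and 0.0686% of all genes). In those, 5 and 0 of the 10 had an unadjusted p under 0.05, against 1403 and 1090 of all 13125 genes. DESeq2 called 1 and 0 of the 10, and 177 and 81 of all genes. In all 4 comparisons every second-run tCDCA library for Dgat2 lay below every second-run extract library. The first run did not show this order: Dgat2 was at 56 CPM with tCDCA, at 56.1 with WT CME(-), 54.9 with WT CME(+), 46.1 with Asbt-/- CME(-) and 60.9 with Asbt-/- CME(+). The call against Asbt-/- CME(+) held in 7 of 20 alternatives. It was lost without tCDCA replicate 2 (-0.59, 0.096), 3 (-0.54, 0.105) or 4 (-0.54, 0.136), without Asbt-/- CME(+) replicate 1 (-0.65, 0.0686), 3 (-0.59, 0.121) or 4 (-0.54, 0.161), and with the replicate block (-0.61, 0.0525). Against WT CME(+) the Dgat2 call held in 12 of 19, and was lost without tCDCA replicate 4 (-0.7, 0.0698) or WT CME(+) replicate 3 (-0.66, 0.143) or 4 (-0.68, 0.141).

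Over all 10 genes, the median difference of tCDCA was -0.82 from WT CME(-), -0.9 from WT CME(+), -0.54 from Asbt-/- CME(+) and -0.22 from Asbt-/- CME(-). In the last of these the 10 values lay between -0.57 and 0.17. In the second run 9 of the 10 genes had every tCDCA library below every WT CME(+) library, where 14.7% of all genes did. Such genes numbered 3 against WT CME(-) (7.44%), 2 against Asbt-/- CME(-) (12.1%) and 2 against Asbt-/- CME(+) (9.5%).

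The comparison of CME(-) with CME(+) sets each extract beside the form taken as depleted. Fgf15 was still called higher than DMSO with that form, by 3.05 ± 0.38 for WT (adjusted p = 0.00138) and 3.14 ± 0.36 for Asbt-/- (0.000136). Between forms, Fgf15 was higher with CME(-) by 1.46 ± 0.3 for WT (0.255, not called) and by 2.07 ± 0.28 for Asbt-/- (0.00567). None of the 10 genes was called by edgeR or DESeq2 with either donor (edgeR called 0% of all genes with WT and 0.0229% with Asbt-/-). In each, 1 of the 10 had an unadjusted edgeR p under 0.05, Dgat2 both times. Of all 13125 genes, 831 with WT and 933 with Asbt-/- had such a p. For the WT donor Dgat2 was at -0.51 ± 0.18 (interval -0.86 to -0.15, unadjusted p = 0.00668, adjusted p = 0.538) and for Asbt-/- at -0.41 ± 0.18 (interval -0.77 to -0.04, unadjusted p = 0.0295, adjusted p = 0.645). Its second-run levels with WT CME(-), 64.3, 65.1 and 80.7 CPM, lay below the 117 and 114 of WT CME(+), and the 75 and 68.6 of Asbt-/- CME(-) lay below the 80.4, 96.8 and 105 of Asbt-/- CME(+).

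That order did not carry over to the first run for both donors. There Dgat2 was at 56.1 and 54.9 CPM with WT CME(-) and CME(+), and at 46.1 and 60.9 with the Asbt-/- extracts. In the second run 2 of the 10 genes, Dgat1 and Dgat2, had every CME(-) library below every CME(+) library with WT (13.1% of all genes). With Asbt-/- there was 1 such gene, Dgat2 (16.4%). The medians of the 10 genes were -0.12 for WT and -0.15 for Asbt-/-. For the difference in form effect between donors, 0 of the 10 were called by edgeR (0% of all genes), 0 had an unadjusted p under 0.05, DESeq2 called 0, and the median difference was 0.02, with values from -0.17 to 0.8.

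Between donors, all 10 genes were higher with the WT extract in both forms, by medians of 0.53 for CME(-) and 0.5 for CME(+), and 0 were called by edgeR or DESeq2 (0% of all genes in both). With CME(-) 0 of the 10 and with CME(+) 1 had an unadjusted p under 0.05, against 531 and 556 of all 13125 genes. In the second run 9 of the 10 lay higher without overlap for WT CME(+) than for Asbt-/- CME(+), where 12.8% of all genes did, and Mttp overlapped. Fabp2 gives an example, with 1680 and 2230 CPM against 431, 1140 and 674. For CME(-) there were 3 such genes, Apob, Apoa4 and Fabp2, against 11.1%. In the first run the Apoa4 level was 30.5 CPM with WT CME(-) and 5.67 with Asbt-/- CME(-), but 17.8 with WT CME(+) and 27.3 with Asbt-/- CME(+).

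Several of the genes differed between the sequencing runs. The run term of the fit, second minus first, was 2.66 ± 0.66 for Apoa4 (6.32-fold), 1.75 ± 0.5 for Apoc3, 1.57 ± 0.35 for Apob and 1.07 ± 0.3 for Apoa1, against a median of 0.02 over all genes. The intake and synthesis genes differed less: Fabp2 by 0.69 ± 0.37, Dgat2 by 0.49 ± 0.13, Slc27a4 by 0.29 ± 0.18, Mogat2 by 0.28 ± 0.18 and Dgat1 by 0.07 ± 0.13, while Mttp was at -0.38 ± 0.18. With the extracts, Apoa4 was at 5.67 to 30.5 CPM in the first run and at 33 to 314 in the second. With tCDCA it was at 13.4 CPM in the first run and at 172, 15.4 and 11.3 in the second, so 2 of the 3 second-run tCDCA libraries were close to the first-run library.

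Within the first run the single library of each group was set beside DMSO replicate 1, which had 0.5% DMSO and is not in the fit. The tCDCA library was lower in all 10 genes with a median of -0.25 log2 units, from -0.86 for Mogat2 to 0 after rounding for Dgat2. Apoa4 and Fabp2, both at -0.05, were nearly level too. The Asbt-/- CME(-) library was lower in 10 of 10, with a median of -0.49, and WT CME(-), WT CME(+) and Asbt-/- CME(+) were split, with 4, 4 and 5 genes lower and medians of 0.18, 0.05 and 0.03. These are single libraries with no replicate check, the 10 genes vary together, and the shares of all genes lower in each library were not counted. With the second-run libraries alone, 5 of the 10 genes were called lower with tCDCA, a count not set against the share of all genes called there.

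The genes that varied most like the group over the 16 second-run libraries compared were named by the Pearson r of their log2 CPM with the mean standardised level of the 10. The first was Slc15a1, a peptide transporter gene of the brush border (r = 0.983), followed by Prap1 (0.959), the intestinal alkaline phosphatase gene Alpi (0.953), Clca4b (0.953), Aspa (0.952), Ces2a (0.951), H2-Q2 (0.95) and the peptidase gene Mme (0.949). Of the 10 themselves, Slc27a4 was closest at 0.974 and Mogat2 least close at 0.72, with Apob at 0.81 and Dgat2 at 0.832. Each of the 10 is part of the mean it was set against, which raises its r, so these are not comparable with the r of other genes. The libraries share the treatments and the scaling, so r describes a pattern and no p is given. Slc15a1 and Alpi are also on the enterocyte list. With tCDCA, Slc15a1 fell by 1.86 ± 0.27, Prap1 fell by 1.32 ± 0.19 and Mme fell by 2.1 ± 0.42. These genes were chosen for varying like the 10 over libraries that include the second-run tCDCA and DMSO libraries. The choice itself favoured a fall with tCDCA, so these values are descriptive and are given without a p.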

How the data were processed

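RNA from 24 ileal samples was read by QuantSeq 3' mRNA-seq from 100 ng of total RNA, per the labels' protocols. The authors deposited 1 table of raw counts per gene. The submitters' processing notes name FastQC, cutadapt, HISAT2, Picard and GRCm39, while how genes were counted, on which annotation and with what strand setting, is not given in the sources used here, so overlapping genes cannot be told apart. Of 57126 identifiers, 51884 were matched to a symbol, and these held 88.4% of counts.

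The labels mark 3 libraries as removed (DMSO replicate 1, Asbt-/- CME(-) replicate 3 and WT CME(+) replicate 2), and they were left out. The other 21 were fitted together in edgeR 4.0.16 (R 4.3.3) with terms for group and sequencing run, the run being read from the column names, after filterByExpr and TMM scaling. The quasi-likelihood test was two-sided, with Benjamini-Hochberg adjustment over 13125 genes and 95% intervals. The script was tested on simulated data. Alternatives changed the scaling, count filter, run term, libraries, replicate block and test (DESeq2 1.42.0). One alternative, with DMSO replicate 1 added, was chosen after seeing the data.

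CME(-) and CME(+) extracts of 1 donor share a replicate number, per the labels, while DMSO and tCDCA share only a number. Deviations of extract libraries from the same donor correlated at 0.03, 0.06, 0 and -0.01. WT CME(+) and Asbt-/- CME(-) have 2 second-run libraries each, whose deviations from their mean mirror each other. These correlations are therefore not independent and cannot decide whether the donor matters. The least different pair of replicates had a chi-square of 7.95 per degree of freedom, so none was a repeat deposit. By this measure tCDCA replicate 3 differed less from first-run replicate 1 (53.84) than from replicates 4 (85.11) and 2 (112.63) of its own run. The genes and lists were chosen with earlier results of these data known. Besides the 10 genes, up to 3 called genes of each pathway list with the smallest p, the 8 genes most like the group, and Fgf15 and Slc10a2 were named by rule.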

Additional observations from a re-analysis of the deposited data

Results flagged for a closer look

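In 6 of 30 groups of 4 libraries, 1 library lay apart from the other 3 by more than Dixon's 95% critical ratio, on unlogged CPM. The groups reuse the same libraries for genes that vary together, and each mixes the sequencing runs. The count of 6 therefore has no chance rate to be set against. The library of tCDCA replicate 2 lay apart in 4 genes: Apoa1 was at 1040 CPM (next highest 374), Apoa4 at 172 (15.4), Apoc3 at 28.8 (7.57) and Slc27a4 at 80.8 (54.7). Fabp2 in WT CME(-) replicate 4 was at 2620 CPM, with the next library at 1060. Slc27a4 in Asbt-/- CME(+) replicate 2 was lowest, at 62.7 CPM, with the next at 100.

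Of 20 values in the treated libraries that the labels mark as removed, 4 were above every DMSO library compared, all in WT CME(+) replicate 2. Dgat2 was there at 143 CPM (highest DMSO library 126), Mogat2 at 65.3 (59.3), Mttp at 233 (159) and Apob at 1170 (998). How many of all genes lay above every DMSO library in these libraries was not counted, so the 4 have no background to be read against. The removed libraries were scaled together with all others, and the DMSO values come from the scaling without them.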

How the results depend on the processing

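With tCDCA against DMSO, 6 of the 10 genes were called lower, 10 by DESeq2, 3 with number 3 of both groups omitted, and 4 to 9 with 1 library left out. With WT CME(-) against DMSO the count of 1 became 2 with no count filter or with DESeq2. It became 0 with no scaling factors, pan-epithelial scaling, no run term, second-run libraries only, all 24 libraries, the compared groups alone, number 3 of tCDCA and DMSO omitted or DMSO replicate 1 added, and was 0 to 1 with 1 library left out. With Asbt-/- CME(-) the count of 1 became 0 with no scaling factors or no run term, 4 with no count filter, 2 with the compared groups alone and 6 by DESeq2, and was 0 to 2 with 1 library left out. With Asbt-/- CME(+) it became 0 with no scaling factors or no run term, 3 with no count filter or the compared groups alone and 5 by DESeq2, and was 1 to 2 with 1 library left out. For tCDCA against WT CME(-), 0 became 1 with no count filter or DESeq2. Against WT CME(+), 1 became 0 with pan-epithelial scaling, no run term or the compared groups alone, 4 with no count filter or all 24 libraries, 3 by DESeq2 and 2 with number 3 omitted, and was 0 to 2 with 1 library left out. Against Asbt-/- CME(+), 1 became 0 with no scaling factors, pan-epithelial scaling, no run term, all 24 libraries, the compared groups alone or number 3 omitted, became 3 with no count filter, and was 0 to 2 with 1 library left out. These counts are not set against the shares of all genes called under each setting, and the cause of the shifts was not tested.

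With the replicate block, 5 genes were called for tCDCA against DMSO (650 of all genes) and 0 for tCDCA against Asbt-/- CME(+), and the counts of the other 12 comparisons did not change. Over all genes the block moved Asbt-/- CME(-) against DMSO from 125 to 81 called genes, tCDCA against Asbt-/- CME(-) from 15 to 4 and the Asbt-/- form comparison from 3 to 22. Same-numbered tCDCA and DMSO libraries had deviations correlated at 0.07, -0.09 and -0.08.

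Signs changed in WT CME(+) against DMSO for Dgat2 (0.01 with no scaling factors, 0.03 with second-run libraries only, 0.11 with all 24 libraries, 0.02 with the compared groups alone, 0.03 without WT CME(+) replicate 1), Mttp (0.14 with all 24 libraries) and Apob (0.16 with all 24 libraries, 0.02 with number 3 of tCDCA and DMSO omitted). With 1 library left out, Dgat2 in WT CME(+) against DMSO ran from -0.25 to 0.03. Apob in WT CME(-) against DMSO was at 0.03 with number 3 omitted. With tCDCA against DMSO, 331 genes were called higher and 415 lower, and 116 and 474 with pan-epithelial scaling. With Asbt-/- CME(+) they were 182 and 121, and 269 and 18 with no scaling factors, which moved the median of all genes to 0.22. Groups of 3 or 4 libraries and a run without a DMSO library in the fit limit the precision.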
